A study of Mus musculus with 18 samples.

Results

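The Rag GTPases and the subunits of the AMP-activated protein kinase (AMPK), both sensors of nutrient and energy state, were followed through 10 genes: Rraga, Rragc, Rragd, Flcn, Prkaa1, Prkaa2, Prkab1, Prkab2, Prkag1 and Prkag2. They were listed by name, and 10 of the 18820 genes measured were found, each through the probe set of highest mean among those that carry 1 gene symbol. The list was chosen by measured values of this series: Rragd and Prkaa2 stood higher in Ezh2 null than in control cells, and already 5 days after tamoxifen. Those comparisons are therefore described below with no test, and Rragd and Prkaa2 are tested only between groups that played no part in the choice.

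RNA of iMEF clone C2 was hybridised to 18 whole-transcript mouse arrays in 9 groups of 2. C2 is a single clone of mouse embryonic fibroblasts transformed with c-Myc. All groups, controls included, derive from cells with a floxed Ezh2 allele, an Ezh2 allele already deleted and a tamoxifen-activated Cre recombinase at the ROSA26 locus. The first experiment followed vehicle-treated cells (ethanol) and cells 5, 18 and 32 days after tamoxifen. The same vehicle arrays are the reference at every time, so effects of tamoxifen and of time in culture cannot be told apart. The second compared Ezh2 null cells (labelled Ezh2 -/-), cells given Ezh1 or Ezh2 by retrovirus before the deletion (Ezh1 pre-rescue and Ezh2 pre-rescue), null cells given Ezh2 afterwards (Ezh2 post-rescue), and control cells labelled Ezh2 WT. Ezh2 is the main methyltransferase of Polycomb repressive complex 2, which places H3K27me3, a histone mark of silenced genes, and Ezh1 is its paralog.

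Rag GTPases work on the lysosome as pairs, RagA or RagB (Rraga, Rragb) with RagC or RagD (Rragc, Rragd). When amino acids are plentiful the pair brings mTORC1, the kinase complex that drives growth, to the lysosomal surface. Folliculin (Flcn) activates the GTPase of RagC and RagD, which governs how the MiT/TFE transcription factors, the regulators of lysosomal genes, are held in the cytoplasm. AMPK answers low energy and opposes mTORC1. It is a trimer of a catalytic α subunit (Prkaa1, Prkaa2), a scaffolding β subunit (Prkab1, Prkab2) and a γ subunit that binds adenine nucleotides (Prkag1, Prkag2).

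Values are log2 intensities, so a difference of 1 is a doubling. Array medians ran from 4.98 to 5.08 across the time course, while those of the rescue experiment ran from 6.16 to 6.27, so levels are compared only within an experiment. Replicate arrays of the time course correlated at 0.998 to 0.999 across genes, which are not independent replicates, and rescue replicates at 0.994 to 0.998. A gene was called changed at an adjusted p under 0.05 in limma, and by this rule the share of all genes called against vehicle was 16.8% at day 5, 25.7% at day 18 and 32.7% at day 32. Of those called, 65.9%, 59.3% and 56.4% were higher at the 3 times in that order, against 41.2%, 37.3% and 44.1% once each array was centred on its median. Fibroblast markers (Col1a1, Col1a2, Col3a1, Pdgfra, Pdgfrb, Vim and Fn1) lay above the array median in every group, 7 of 8 measured, the exception being Thy1. Of 6 blood cell markers only Cd68 did, and none of the adipocyte and neuronal markers did. Of the 4 pluripotency markers, 1 to 3 did in every group, Sox2 always and Nanog and Zfp42 in some. Acta1 and Ckm of 5 skeletal muscle markers, Krt8 of 5 epithelial markers and, at day 5, Tek of 4 endothelial markers did in part of the groups. The Ezh2 probe set read 9.37 and 9.43 in vehicle-treated cells, 9.29 and 9.19 at day 5, 9.80 and 9.63 at day 18, then 9.73 and 9.81 by day 32. Tamoxifen removes the region of the SET domain and not the whole transcript, so this probe set checks nothing about the deletion. The transduced genes were visible: Ezh1 read 11.68 and 11.85 in Ezh1 pre-rescue cells, against 9.50 and 9.82 in control cells. Ezh2 read 12.26 and 11.84 where it was given before the deletion, and 12.55 and 12.12 where given afterwards, against 10.36 and 10.56 in control cells.

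The upstream regions of the pair that chose the list are shown because Polycomb complexes in mammals mostly occupy CpG-rich promoters. RefSeq (GRCm38.p6) gave a start site for all 10 genes, and the 250 bases before it were read. Rragd lies on the plus strand of chromosome 4, with this region at chr4:32982748-32982997, and Prkaa2 on the minus strand of the same chromosome, at chr4:105109899-105110148. CG dinucleotides are in capitals.
Rragd: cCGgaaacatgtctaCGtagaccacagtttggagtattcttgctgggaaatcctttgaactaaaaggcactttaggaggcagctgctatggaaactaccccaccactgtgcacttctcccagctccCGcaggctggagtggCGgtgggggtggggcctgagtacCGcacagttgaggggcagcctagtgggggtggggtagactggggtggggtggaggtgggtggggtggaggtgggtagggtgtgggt
Prkaa2: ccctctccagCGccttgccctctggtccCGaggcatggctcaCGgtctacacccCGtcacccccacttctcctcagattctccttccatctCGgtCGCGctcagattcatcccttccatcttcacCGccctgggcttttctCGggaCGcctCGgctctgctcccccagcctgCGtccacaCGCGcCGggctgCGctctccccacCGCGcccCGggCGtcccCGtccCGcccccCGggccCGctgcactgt
The Rragd window held 5 CG dinucleotides and had a G+C content of 59.6%, and 44.4% of the 32851 windows of this length held fewer. The Prkaa2 window held 24 and had a G+C content of 70.0%, and 88.0% of the windows held fewer. The median window held 6. These genes thus lie on the same chromosome but differ in CpG density just before their starts.

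The other members ranged from 9 CG dinucleotides at Flcn to 45 at Prkaa1, apart from Prkag2, whose 3 annotated starts had 23, 4 and 34. The E-box CACGTG, the core letters bound by MYC and MiT/TFE factors, was searched on both strands, which for this palindrome read alike. It was found once among the 10 genes, in Rragc (plus strand, chr4:123917183-123917432), where its first base lies 112 bases before the start. It is in capitals here.
Rragc: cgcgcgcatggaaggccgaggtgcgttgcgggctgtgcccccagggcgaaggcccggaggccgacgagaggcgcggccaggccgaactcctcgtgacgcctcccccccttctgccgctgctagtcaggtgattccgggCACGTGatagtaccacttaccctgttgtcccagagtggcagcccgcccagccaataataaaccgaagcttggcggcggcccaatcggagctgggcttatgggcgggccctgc
Of all windows, 6.02% held CACGTG. A match describes these letters in this window and shows no binding.

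Rragd was at its lowest in vehicle-treated cells and at its highest on day 5. Its arrays read 5.50 and 5.84 in vehicle-treated cells, 7.45 and 7.29 at day 5, 7.05 and 6.88 at day 18, then 6.85 and 6.88 at day 32. The 3 groups after tamoxifen did not overlap vehicle, and day 5 lay above the later times. The difference from vehicle was 1.7 ± 0.118 (SE, 2 arrays a group) at day 5, a fold of 3.24, then 1.29 at day 18 and 1.19 at day 32. As these are bulk samples, more cells expressing a gene and more RNA per cell cannot be told apart. Between day 32 and day 18, which played no part in the choice, Rragd differed by −0.10 (95% interval −0.36 to 0.17, limma adjusted p = 0.730). At day 32 it was still 2.28-fold above vehicle.

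Prkaa2, the catalytic α2 subunit of AMPK, stood higher at days 18 and 32 than at day 5, a difference that was not tested. It read 4.96 and 4.93 in vehicle-treated cells, 6.59 and 6.43 at day 5, 7.37 and 7.16 at day 18, then 7.25 and 7.40 at day 32. The order of the levels was thus vehicle, day 5, then days 18 and 32, whose arrays overlapped. The difference from vehicle was 1.57 ± 0.0985 at day 5 (2.96-fold), 2.32 at day 18 and 2.38 at day 32 (5.21-fold). Day 32 and day 18 differed by 0.06 (95% interval −0.16 to 0.28, limma adjusted p = 0.819). The vehicle values lay below the array median of all probe sets on both arrays of the group, and the other 16 of the 18 arrays read Prkaa2 above their median.

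In the rescue experiment both genes were highest in Ezh2 null cells. Rragd read 9.07 and 8.93 in Ezh2 null cells, against 5.86 and 6.46 in control cells. The difference was 2.84 ± 0.195, a fold of 7.16, with 3.21 within the first replicates and 2.47 within the second. Prkaa2 read 9.26 and 9.54 in Ezh2 null cells, against 6.7 and 6.6 in control cells. Its difference was 2.75 ± 0.160, a fold of 6.74, with 2.56 and 2.95 within replicates. These are the values by which the pair was chosen. Of the 10 genes, 2 were past the threshold there, Rragd and Prkaa2 themselves, and 1.95% of all genes were. The choice of the pair favours this count, which is given as a description only.

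**Figure D1:**
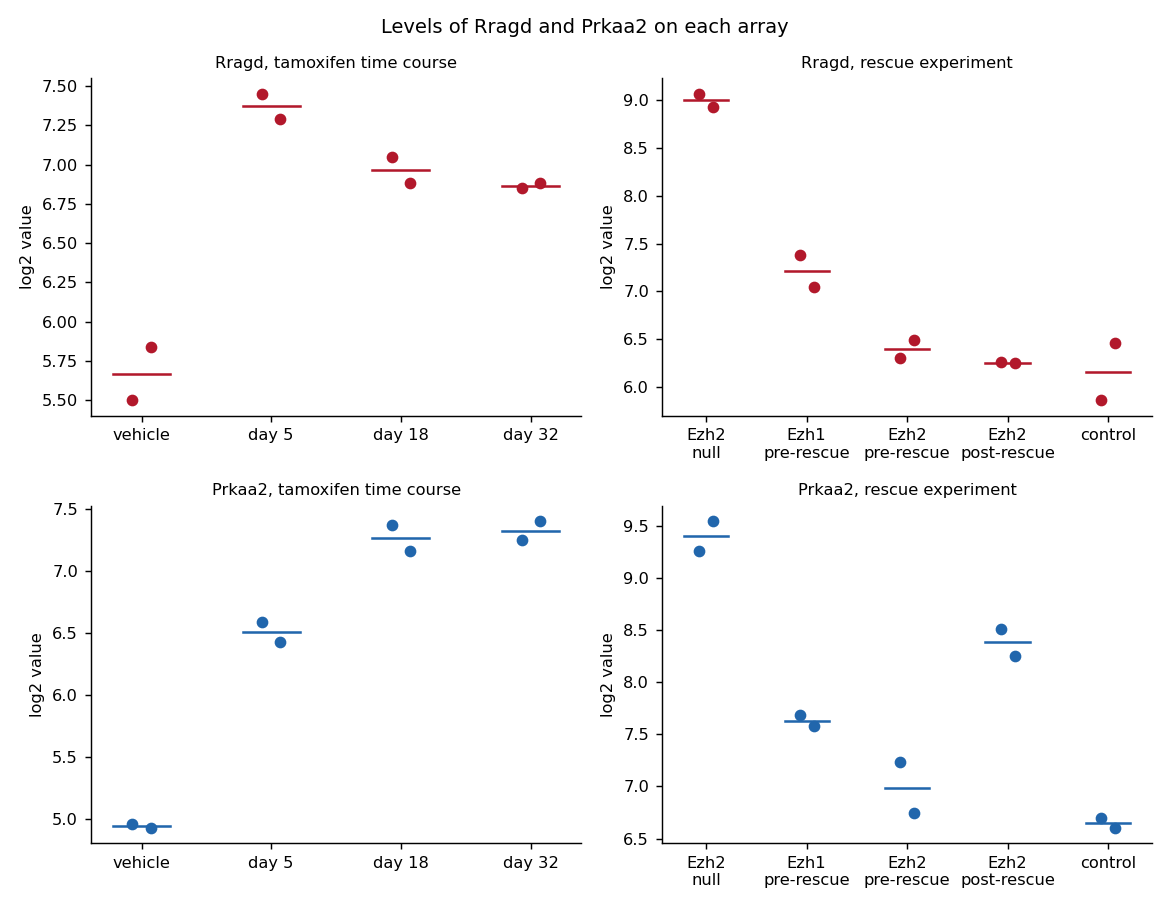
Log2 values of Rragd (top) and Prkaa2 (bottom) on every array of the time course (left) and of the rescue experiment (right); points are arrays, bars group means of 2, and each panel has its own axis. Rragd is highest at day 5 and lies near 6.3 in Ezh2 post-rescue cells, where Prkaa2 still reads 8.51 and 8.25.

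Both genes lay well below the null level in cells given Ezh1 or Ezh2 before the deletion, with higher values under Ezh1 than under Ezh2. Rragd read 7.38 and 7.05 in Ezh1 pre-rescue cells, 6.30 and 6.49 in Ezh2 pre-rescue cells, and 5.86 and 6.46 in control cells. Prkaa2 read 7.68 and 7.58 in Ezh1 pre-rescue cells, 7.23 and 6.74 in Ezh2 pre-rescue cells, and 6.7 and 6.6 in control cells. Only for Rragd in Ezh2 pre-rescue cells did the arrays overlap those of control. Prkaa2 differed from control by 0.34 ± 0.160 in Ezh2 pre-rescue cells, which was not tested. Of all genes, 35.8% did not overlap control in Ezh1 pre-rescue cells and 37.7% did not in Ezh2 pre-rescue cells. Against Ezh2 null, the Rragd difference was −1.79 with Ezh1 and −2.61 with Ezh2, and the Prkaa2 difference −1.77 and −2.42.

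Ezh1 and Ezh2 pre-rescue cells could be compared with a test, since neither group was used to choose the genes. Rragd was 0.82 ± 0.195 higher with Ezh1 (1.08 and 0.56 within replicates) and Prkaa2 0.64 ± 0.160 higher (0.45 and 0.83). All arrays of the Ezh1 group lay above all those of the Ezh2 group for both genes. The 2 groups did not overlap for 3 of the 10 members and for 24.3% of all genes. Neither difference passed the adjustment over all genes (limma adjusted p = 1.0 for both). Called in this comparison were 0 of the 10 genes and 0.00531% of all genes. An unadjusted p under 0.05 was met by 211 of all genes (1.12%), among them 2 of the 10, Rragd and Prkaa2.

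The pair parted when Ezh2 was given back after the deletion. Rragd read 6.26 and 6.25 in Ezh2 post-rescue cells, against 9.07 and 8.93 in Ezh2 null cells and 5.86 and 6.46 in control cells, within which range it lay. Prkaa2 read 8.51 and 8.25 in Ezh2 post-rescue cells, against 9.26 and 9.54 in Ezh2 null cells and 6.7 and 6.6 in control cells. Relative to null, the Rragd difference was −2.74 and the Prkaa2 difference −1.02. Relative to control, Rragd differed by 0.10 and Prkaa2 by 1.73. The tested form of this contrast set Ezh2 post-rescue against Ezh2 pre-rescue cells. Prkaa2 was 1.39 ± 0.160 higher in post-rescue cells, 2.63-fold, with 1.28 and 1.51 within replicates (limma adjusted p = 0.0140). Rragd differed by −0.14 (95% interval −0.59 to 0.32, adjusted p = 0.822). Prkaa2 was the only gene called of the 10, where 0.882% of all genes were, and 3 had an unadjusted p under 0.05, where 14.4% of all genes did. The call was lost on leaving out any single array of these groups, with adjusted p between 0.0669 and 0.210 and a difference of 1.17 to 1.62.

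Of the other members, Rragc, Flcn, Prkag2 and, at day 32, Rraga fell after tamoxifen, against the same vehicle arrays at each time. A fall with time in culture alone cannot be told apart from a fall with tamoxifen. In Ezh2 null against control cells, given with no test, the 4 genes differed by −0.19, −0.12, −0.24 and −0.17 in that order. Of the 8 members other than Rragd and Prkaa2, 3 fell and 0 rose at day 18, where 10.5% of all genes were called lower, and 4 fell and 0 rose at day 32, where 14.2% were. The median change of the 8 was −0.004 at day 18 and −0.15 at day 32, against −0.02 over all genes at both times.

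Rragc, the paralog of Rragd that shares its place in the heterodimer, read 9.60 and 9.70 in vehicle-treated cells, 9.91 and 9.88 at day 5, 9.26 and 9.24 at day 18, then 9.10 and 9.08 at day 32. None of the groups overlapped, with day 5 above vehicle and the later times below it. The difference from vehicle was 0.25 at day 5, and Rragc fell by 0.40 ± 0.0714 at day 18 (limma adjusted p = 0.0029) and by 0.56 ± 0.0714 at day 32 (adjusted p = 0.0002). The gene has a second, dimmer probe set, which changed by −0.02 at day 5, −0.04 at day 18 and −0.11 at day 32. When both were averaged, the difference was 0.11 at day 5, the day 18 call was lost (−0.22, adjusted p = 0.0867), and day 32 stood at −0.34 (adjusted p = 0.0124). Thus while Rragd stood above its vehicle level at all 3 times, Rragc was below its own at days 18 and 32.

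Flcn followed Rragc. It read 7.72 and 7.65 in vehicle-treated cells, 7.86 and 7.92 at day 5, 7.42 and 7.42 at day 18, then 7.03 and 7.21 at day 32. The difference was 0.21 at day 5, and Flcn fell by 0.27 ± 0.0815 at day 18 (limma adjusted p = 0.0370) and by 0.56 ± 0.0815 at day 32 (adjusted p = 0.0005). The day 18 call was lost on leaving out either array of vehicle, day 5 or day 18, with adjusted p between 0.0520 and 0.148. Rraga, which encodes RagA, read 9.16 and 9.41 in vehicle-treated cells, 9.45 and 9.35 at day 5, 9.19 and 9.32 at day 18, then 9.0 and 8.93 at day 32. The day 32 arrays both lay below the vehicle range, at −0.32 ± 0.0965 (adjusted p = 0.0289). That call was lost without the second vehicle array (−0.20, adjusted p = 0.159) or without either day 32 array (adjusted p = 0.0748 and 0.138).

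Among the AMPK subunits, the γ2 subunit Prkag2 fell. It read 9.65 and 9.65 in vehicle-treated cells, 9.57 and 9.55 at day 5, 9.20 and 9.14 at day 18, then 8.96 and 9.02 at day 32, each time lower than the time before with no overlap. It fell by 0.48 ± 0.0703 at day 18 (limma adjusted p = 0.0009) and by 0.66 ± 0.0703 at day 32 (adjusted p = 0.0001), a fold of 1.58. Prkag2 and the catalytic subunit Prkaa2 thus lay on opposite sides of their vehicle levels at both times.

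The other subunits stayed near vehicle, apart from Prkag1 at day 5. Prkaa1, the α1 paralog of Prkaa2, read between 8.90 and 9.13 on all 8 arrays, and its group means spanned 0.14, where the median gene spanned 0.28. The scaffold Prkab1 read between 9.17 and 9.46 and its paralog Prkab2 between 6.4 and 6.89. The γ1 subunit Prkag1 read 9.64 and 9.65 in vehicle-treated cells, 9.21 and 9.37 at day 5, 9.70 and 9.75 at day 18, then 9.79 and 9.68 at day 32, so only day 5 lay lower, by 0.35. A second, dimmer Prkag1 probe set changed by −0.19 at day 5, 0.009 at day 18 and −0.10 at day 32. For Prkaa1, Prkab1, Prkab2 and Prkag1 the limma adjusted p lay between 0.167 and 0.904 at days 18 and 32, with changes of 0.03 to 0.23. Over the 10 members, 4 were past the threshold at day 5, 3 higher and 1, Prkag1, lower, where 16.8% of all genes were. This is given as a description, since day 5 was used in the choice.

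**Figure D2:**
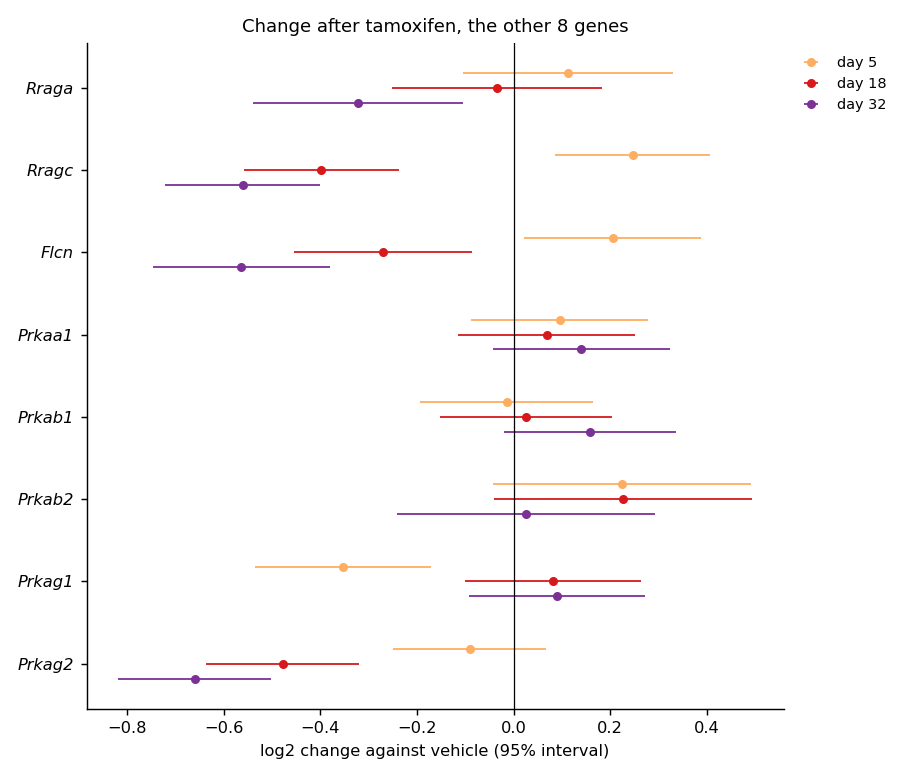
Log2 change against vehicle of the 8 members other than Rragd and Prkaa2 at day 5, day 18 and day 32 (points, limma estimate; lines, 95% interval; 2 arrays a group). By point estimate, Rragc, Flcn and Prkag2 lie left of 0 at days 18 and 32, down to −0.66, while Prkaa1 stays within 0.14 of it.

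No member was called between day 32 and day 18, where 4.15% of all genes were. An unadjusted p under 0.05 was met by 18.8% of all genes and by 4 members, which were Flcn (−0.29, limma adjusted p = 0.0837), Rraga (−0.29, 0.143), Prkag2 (−0.18, 0.201) and Rragc (−0.16, 0.261). Flcn and Rraga passed at adjusted p = 0.0458 and 0.0381 when the variance was allowed to follow intensity.

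In the rescue experiment 1 of the remaining members was called against Ezh2 null or control. Called were 0 of 8 in Ezh1 pre-rescue against Ezh2 null (2.30% of all genes), 1 of 8 in Ezh2 pre-rescue against Ezh2 null (7.14%), 0 of 8 in Ezh2 post-rescue against Ezh2 null (0.600%) and 0 of 8 in Ezh2 post-rescue against control (0.707%). In that order 2, 4, 1 and 0 of the 8 had an unadjusted p under 0.05, where 20.1%, 23.6%, 13.8% and 9.51% of all genes did. The median absolute change of the 8 was 0.18 in Ezh1 and 0.25 in Ezh2 pre-rescue against Ezh2 null, against 0.12 and 0.13 over all genes. The gene called was Prkag2. Its arrays gave 10.27 and 10.18 with Ezh1 before the deletion, 10.16 and 10.23 with Ezh2 before it, 9.82 and 9.90 with Ezh2 after it, 9.69 and 9.19 in the null and 9.49 and 9.87 in the control. Both null and control arrays were spread widely, and all pre-rescue arrays lay above them. Prkag2 rose by 0.75 ± 0.178 in Ezh2 pre-rescue against Ezh2 null cells (limma adjusted p = 0.0469), with 0.47 and 1.04 within replicates. Against the same cells the difference in Ezh1 pre-rescue was 0.78 ± 0.178 (adjusted p = 0.0643). Without the second null array the Ezh2 pre-rescue difference was 0.45 (adjusted p = 0.207), and the call was also lost on leaving out any single one of the 6 rescue arrays (adjusted p between 0.0757 and 0.271).

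Rragc read 10.67 and 10.62 in cells given Ezh1 early, 10.7 and 10.65 in those given Ezh2 early and 10.49 and 10.55 in those given Ezh2 late. It read 10.36 and 10.46 in null cells, against 10.52 and 10.68 in control cells. Its null arrays were the lowest, with no overlap, by 0.26 against Ezh2 pre-rescue (limma adjusted p = 0.108). Rraga was 0.34 lower in Ezh2 post-rescue than in Ezh2 pre-rescue cells (−0.34 ± 0.0976, adjusted p = 0.168). The 5 group means of Prkaa1 spanned 0.045, and 0.994% of genes spanned less. Flcn read between 8.34 and 8.77 over the 10 arrays, and its control arrays, at 8.34 and 8.76, spanned all but the highest of these values.

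**Figure D3:**
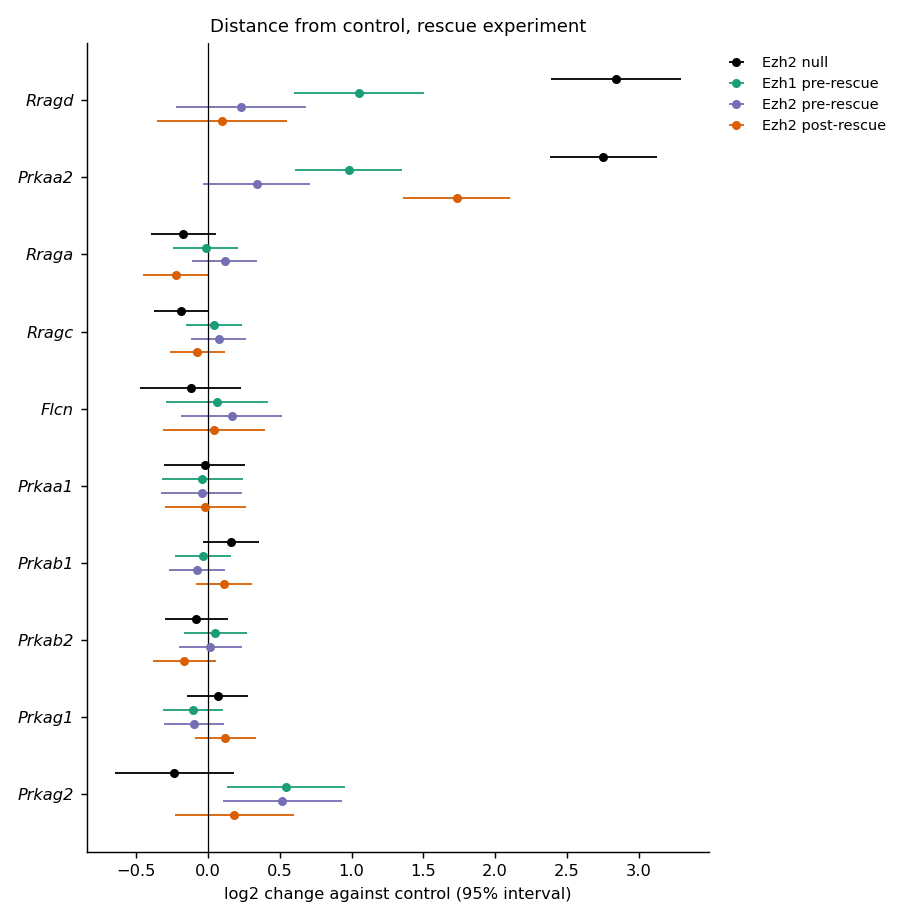
Log2 change of the 10 genes against control in Ezh2 null, Ezh1 pre-rescue, Ezh2 pre-rescue and Ezh2 post-rescue cells (points, limma estimate with the replicate block; lines, 95% interval; 2 arrays a group). Rragd and Prkaa2 lie at 2.84 and 2.75 in null cells, and in post-rescue cells at 0.10 and 1.73. Of the other genes only Prkag2 has point estimates beyond 0.5.

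The genes around the Rag pair and AMPK are given by how many were called, to be read against the 16.8%, 25.7% and 32.7% of all genes called at the 3 times. Counts at day 5 and in Ezh2 null against control come from the comparisons that chose the list, and are given for these genes too as a description of how many passed the threshold. The Rag partners comprised RagB, the 5 Ragulator subunits that anchor the pair to the lysosome and the lysosomal arginine sensor Slc38a9. Of 7 measured, 1 was higher and 1 lower at day 5, 0 rose and 1 fell at day 18 and 0 rose and 3 fell at day 32, with a median of −0.23 at day 32. Rragb was 0.47 higher at day 5, and Lamtor1, the membrane anchor of Ragulator, fell by 0.35 at day 18 and by 0.45 at day 32. Of 16 measured upstream regulators (GATOR and KICSTOR subunits and the amino acid sensors), 2 were higher and 2 lower at day 5, 1 rose and 2 fell at day 18, and 3 rose and 6 fell at day 32. Sesn1, of the sestrin family that includes a leucine sensor, changed by −0.35 at day 5 and fell by 0.25 at day 18 and by 0.58 at day 32. Of 10 genes of mTORC1 and its TSC brake, 3 were higher at day 5, 1 rose and 1 fell at day 18, and 2 rose and 2 fell at day 32. Deptor, an inhibitor of mTOR, was 0.46 higher at day 5 and fell by 0.71 at day 18 and by 1.00 at day 32.

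Around AMPK, the upstream kinases and their partners, with the muscle γ3 subunit, held 8 measured genes, of which 0 were called at day 5, 1 at day 18 and 1 at day 32. Of 14 measured substrates, 2 were higher and 1 lower at day 5, 1 rose and 1 fell at day 18, and 3 rose and 2 fell at day 32. Among them Ppargc1a, a coactivator of mitochondrial genes, was 0.95, 1.01 and 1.46 higher at the 3 times, and Foxo3 fell by 0.51 and by 0.61 at days 18 and 32. Of 11 measured AMPK-related kinases, 3 were higher and 1 lower at day 5, 2 rose and 3 fell at day 18, and 4 rose and 4 fell at day 32. Nuak2 was 1.08 higher at day 5 and 0.66 higher in Ezh2 null than in control cells, the only gene of these lists called in that comparison. In Ezh2 post-rescue against Ezh2 null cells the only such gene was Mark1, a microtubule-affinity regulating kinase, which fell by 0.78.

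The MiT/TFE factors lie downstream of the Rag pair and folliculin, and lysosomal and autophagy genes of their target list were higher at day 5 and fell later. At day 5, 8 of the 14 measured targets were past the threshold higher and 0 lower. Of all genes, 16.8% were called in either direction and 11% were called higher. With each array centred on its median, only 4 of the targets were higher and 1 was lower. On leaving out the first vehicle array or the second day 5 array, 4 were higher, and without the first day 5 array 5. At day 18, 1 rose and 9 fell, against 25.7% of all genes called in either direction and 10.5% called lower. Without the second vehicle array or the first day 18 array, 6 fell. At day 32, 0 rose and 12 fell, against 32.7% in either direction and 14.2% lower, and 12 fell under every alternative. The median change of the 14 was 0.31 at day 5, −0.32 at day 18 and −0.61 at day 32, against −0.005, −0.02 and −0.02 over all genes.

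Hexa, a lysosomal hexosaminidase subunit, read 6.13 and 6.44 in vehicle-treated cells, 7.91 and 7.93 at day 5, 6.35 and 6.04 at day 18, then 5.49 and 5.33 at day 32. It was thus 1.63 higher at day 5 and 0.88 lower at day 32. The lysosomal sialidase Neu1 read 7.16 and 7.19 in vehicle-treated cells, 7.43 and 7.61 at day 5, 6.32 and 6.43 at day 18, then 5.9 and 6.0 at day 32. It was 0.35 higher at day 5 and fell by 0.80 at day 18 and by 1.22 at day 32. Cathepsin D (Ctsd) read 11.05 and 11.08 in vehicle-treated cells, 11.26 and 11.21 at day 5, 10.27 and 10.28 at day 18, then 10.07 and 10.17 at day 32. Hexa and Neu1 were called at days 5 and 32 in opposite directions. Ctsd was not called at day 5, and Wipi1, an autophagy protein, changed by −0.28 there. Gpnmb, a lysosomal membrane glycoprotein, was 1.48 higher at day 5 and 0.65 higher at day 18 and was not called at day 32 (0.18), nor was the proton pump subunit Atp6v0d2 (0.06). Atp6v0d2 read between 2.37 and 2.58 on all arrays of the time course, below their lower quartiles.

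Of the 6 genes of the folliculin and MiT/TFE list itself, 2 were higher at day 5, 1 rose and 2 fell at day 18, and 1 rose and 3 fell at day 32, beside 16.8%, 25.7% and 32.7% of all genes called. Fnip1, the partner of folliculin, was 0.52 higher at day 5 and fell by 0.28 at day 18 and by 0.63 at day 32. Mitf was 0.35 higher at day 5 and fell by 0.42 and by 0.58. Tfec instead was not called at day 5 and was 1.75 higher at day 18 and 0.74 higher at day 32. Its level was low: it read 3.65 and 3.60 in vehicle-treated cells, where the lower quartiles of the arrays ran from 3.40 to 3.49. At day 32 it read 4.45 and 4.28, still below the array medians of 4.98 to 5.08.

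In the rescue experiment, 2 of the 14 targets rose in Ezh1 pre-rescue against Ezh2 null cells and 4 in Ezh2 pre-rescue against Ezh2 null cells, and 0 fell in either. Ezh1 pre-rescue against Ezh2 null called 0.861% of all genes higher, and 37.4% of its calls were higher, against 56.8% with centred arrays. Ezh2 pre-rescue against Ezh2 null called 3.15% of all genes higher, and 44.0% of its calls were higher, against 63.8% with centred arrays. Neu1 was 0.77 and 0.94 higher and Wipi1 0.82 and 0.93 higher than in Ezh2 null cells with Ezh1 and Ezh2 in that order. No target was called in Ezh2 null against control, where their median was −0.14, or in Ezh2 post-rescue against Ezh2 null cells, where it was 0.20. Against control the target median was 0.22 in Ezh1 and 0.32 in Ezh2 pre-rescue cells, with 0 called in either. Fibroblast markers moved alongside these targets, and their part in the result was not tested. Of the 8 markers, 4 were higher and 0 lower at day 5, 1 rose and 3 fell at day 18, and 0 rose and 3 fell at day 32. Their median changes were 0.25, −0.12 and −0.20 in that order. Their mean level on single arrays was 9.30 and 9.32 in vehicle-treated cells, 9.56 and 9.62 at day 5, 9.18 and 9.21 at day 18, then 9.03 and 9.12 at day 32. In Ezh1 and Ezh2 pre-rescue against Ezh2 null, 2 and 3 of the 8 rose and 0 fell, with medians of 0.42 and 0.62. Against control the marker medians were 0.18 and 0.31 in these cells, with 0 called in either. Their mean level ran from 10.35 to 10.41 in Ezh1 and from 10.42 to 10.53 in Ezh2 pre-rescue cells, against 9.83 to 10.01 in Ezh2 null cells. Of the 4 endothelial markers, 2 were higher at day 5, when their mean level ran from 4.31 to 4.34, against 3.71 to 3.83 in vehicle-treated cells.

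**Figure D4:**
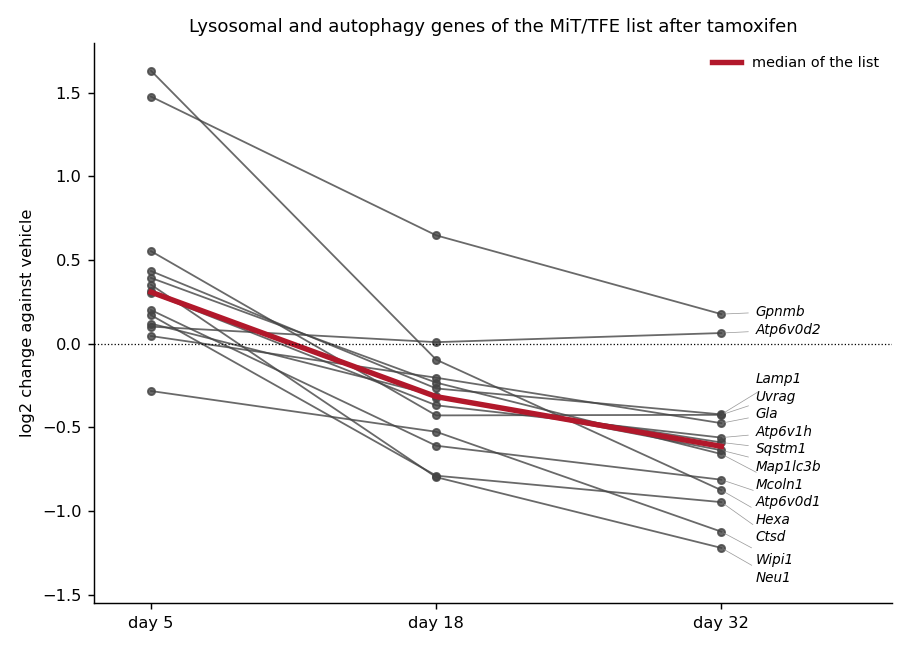
Log2 change against vehicle of the 14 measured MiT/TFE target genes at day 5, day 18 and day 32 (thin lines, genes; thick line, median of the list; group means of 2 arrays). The median passes from 0.31 at day 5 through −0.32 at day 18 to −0.61 at day 32.

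Across the 18 arrays, after the mean of each experiment was subtracted, Rragd and Prkaa2 correlated at 0.76 (Pearson's r). Rragc correlated with Flcn at 0.90, with Rraga at 0.76 and with Prkag2 at 0.71. Rragd and Prkag2 correlated at −0.40, and Prkaa2 and Prkag2 at −0.64. Rragd and Prkaa2 were chosen for standing high in the same groups, which favours a high value for that pair. These arrays share groups and a clone, so the values describe the pattern only.

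Of 1994 genes compared, those most like Rragd were Vldlr (0.92), Dmxl2 (0.89), Igf1 (0.87), Rbpms (0.87) and Calcrl (0.87). Igf1, a growth factor, averaged 5.53 in vehicle-treated cells, 8.0 at day 5, 8.93 at day 18 and 7.76 at day 32. It averaged 9.22 in Ezh2 null and 6.89 in Ezh2 post-rescue cells, against 6.29 in control cells. The genes most like Prkaa2 were Dtx4 (0.98), Akr1c14 (0.95), Arrb1 (0.95), Abhd17c (0.94) and Met (0.93). Dtx4, a Deltex E3 ubiquitin ligase, averaged 7.58 in Ezh2 null and 7.12 in Ezh2 post-rescue cells, against 5.94 in control cells. Met, the receptor of hepatocyte growth factor, averaged 7.10 in Ezh2 null and 6.49 in Ezh2 post-rescue cells, against 5.00 in control cells. The 5 genes most like Prkaa2 thus also stood between null and control in post-rescue cells by their group means, which the choice by correlation favours.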

How the data were processed

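The deposited table held log2 values, which the authors made with RMA in the R package oligo from whole-transcript mouse arrays. Their methods also state a batch correction in limma between first and second replicates of the rescue experiment, and whether the deposited values carry it is not given in the sources used here, nor is a genome build for the arrays. The 2 experiments differed in their array medians and were fitted apart. Of 28440 probe sets, 21217 carried 1 symbol, 1881 several and 5342 none in the platform annotation, and 33 of those with 1 symbol were not matched by gene identifier to the reference annotation. The probe set of highest mean was kept for each of 18820 genes.

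The model, with 1 mean per group, used limma (version 3.58.1, under R 4.3.3) within each experiment (two-sided moderated test, Benjamini-Hochberg over all genes), without a block in the time course and with the replicate number as a block in the rescue experiment. Scripts were tested on simulated data. The RankProduct test of the authors' methods was not run. The study describes the replicates as biological, all from 1 clone, and 2 arrays a group limit the precision.

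The members and gene lists were chosen with earlier results of these data known. Named were all 10 members, Ezh1 and Ezh2, up to 3 called genes of smallest adjusted p per pathway list and comparison, with others of the MiT/TFE list named in a figure, and the 5 genes most alike to Rragd and to Prkaa2 among those with a standard deviation of at least 0.3, leaving out predicted genes, pseudogenes and small RNAs. Alternatives were quantile normalization, median centring, a filter on the 30% of genes of lowest mean, the mean of all probe sets, an intensity trend, the block, and leaving out each array.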

Additional observations from a re-analysis of the deposited data

Results flagged for a closer look

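Prkaa2 was 1.39 higher on the log2 scale in Ezh2 post-rescue than in Ezh2 pre-rescue cells, a difference between the cells given Ezh2 after and before its loss that was tested directly (limma adjusted p = 0.0140) and stood at 1.28 and 1.51 within replicates. The Prkaa2 call was lost on leaving out any single array of these groups, while its difference stayed between 1.17 and 1.62. Rragd differed by −0.14 in the same comparison.

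Another 3 members lay on opposite sides of vehicle at day 5 and day 32 on every array, and for none was the difference between the times tested. Rragc was 0.25 above vehicle at day 5 and 0.56 below it at day 32. This rests on 1 of its 2 probe sets: the second changed by −0.02 at day 5 and −0.11 at day 32, and the mean of both by 0.11 and −0.34. Flcn was 0.21 above vehicle at day 5 and 0.56 below it at day 32. Prkag1 changed by −0.35 at day 5 and by 0.09 at day 32. This too rests on 1 of its 2 probe sets: the second changed by −0.19 at day 5 and −0.10 at day 32. The mean of both stood at −0.0047 at day 32. Among all genes, 54.6% did not overlap vehicle at day 5 and 63.5% did not at day 32, in either direction. The share of all genes on opposite sides at these times was not computed, so the count of members has no matching background.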

How the results depend on the processing

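The limits are 2 arrays a group, 4 residual degrees of freedom in each experiment, and values without a detection call. Replicate differences of different groups correlated between −0.07 and 0.05 over 6 pairs of groups in the time course and between −0.43 and 0.54 over 10 in the rescue experiment. The numbers were thus not shown to pair the arrays, and the block was kept in the rescue experiment because the methods name a batch. With the replicate block the time course counts were unchanged, at 3 of 8 members at day 18, 4 of 8 at day 32 and 0 of 10 between them. With no replicate block, Ezh1 pre-rescue against Ezh2 null called 1 member in place of 0, Prkag2 (adjusted p = 0.0411), and the intensity trend also called 1 (0.0494). The intensity trend called 2 members between day 32 and day 18 in place of 0. No other count of members moved by over 1.5 times under a setting that kept all arrays. Leaving out single arrays gave counts of 0 to 1 in Ezh1 pre-rescue against Ezh2 null, in Ezh2 pre-rescue against Ezh2 null and in Ezh2 post-rescue against Ezh2 pre-rescue.

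Over all genes the trend called 1499 between day 32 and day 18 in place of 781. With no replicate block the calls were 594 in place of 367 in Ezh2 null against control, 858 in place of 433 in Ezh1 pre-rescue against Ezh2 null, 211 in place of 133 in Ezh2 post-rescue against control, 265 in place of 113 in Ezh2 post-rescue against Ezh2 null, and 291 in place of 166 in Ezh2 post-rescue against Ezh2 pre-rescue. Quantile normalization called 654 in Ezh1 pre-rescue and 176 in Ezh2 post-rescue, both against Ezh2 null.

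Changes of sign were met only by members that were not called, and their cause was not tested. Against vehicle at day 18, quantile normalization gave −0.0180 for Prkab1, and median centring gave −0.0645 for Prkab1, −0.0216 for Prkaa1 and −0.0085 for Prkag1. Against vehicle at day 32, Prkab2 was −0.0492 after quantile normalization and −0.0386 after centring. The mean of probe sets turned Prkag1 to −0.0047 at day 32 against vehicle, to −0.0499 at day 32 against day 18 and to 0.0247 in Ezh1 against Ezh2 pre-rescue. Prkaa1 turned to 0.0101 in Ezh2 post-rescue against control after quantile normalization and, after centring, to 0.0521 in Ezh1 and 0.0520 in Ezh2 pre-rescue against Ezh2 null and to −0.0360 in Ezh2 post-rescue against Ezh2 pre-rescue. Flcn turned to −0.0159 in Ezh2 post-rescue against control after centring.

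Leaving out single arrays gave ranges across 0 at day 18 for Rraga (−0.156 to 0.0877) and Prkab1 (−0.0049 to 0.0555), at day 32 for Prkab2 (−0.101 to 0.152), and between day 32 and day 18 for Prkaa2 (−0.0505 to 0.167) and Prkag1 (−0.0446 to 0.0636). In Ezh2 post-rescue against control they did for Flcn (−0.21 to 0.291), Prkaa1 (−0.209 to 0.174) and Prkag2 (−0.06 to 0.425). They also did there for Rragd (−0.24 to 0.436), which was not tested in that comparison. Against Ezh2 null they did for Flcn (−0.0267 to 0.395) and Prkaa1 (−0.145 to 0.112) in Ezh1 pre-rescue, for Prkaa1 (−0.0896 to 0.0487) in Ezh2 pre-rescue, and for Rraga (−0.132 to 0.0262), Prkaa1 (−0.009 to 0.0221), Prkab1 (−0.11 to 0.0218) and Prkag1 (−0.0007 to 0.105) in Ezh2 post-rescue. In Ezh1 against Ezh2 pre-rescue they did for Rragc (−0.0883 to 0.0264), Flcn (−0.312 to 0.11), Prkaa1 (−0.125 to 0.133), Prkab2 (−0.0538 to 0.121), Prkag1 (−0.0889 to 0.0744) and Prkag2 (−0.0225 to 0.0754). In Ezh2 post-rescue against Ezh2 pre-rescue they did for Prkaa1 (−0.0421 to 0.0961).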
